A study of Homo sapiens with 30 samples.

Results

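The H3K4me3 and H3K27ac peaks at 10 genes of the oxidative stress response were examined in OCI-Ly1, a cell line from a human lymphoma of the diffuse large B-cell type. The genes were NFE2L1, NFE2L2, KEAP1, SQSTM1, HMOX1, NQO1, GCLM, GCLC, TXNRD1 and SLC7A11, out of 59792 genes in the RefSeq table. They were taken up because a domain of H3K27ac inside NFE2L1 changed with the dose of JIB-04, a small molecule that inhibits histone demethylases of the Jumonji family. A peak was counted as a gene's own when it lay inside the gene or within 5 kb of it in GRCh38. This gave 65 peaks, of which 19 were H3K4me3 peaks (of 21268 in all) and 46 were H3K27ac peaks (of 63580). H3K4me3 is a histone methylation found mainly at active promoters, and H3K27ac is a histone acetylation of active promoters and enhancers. Chromatin immunoprecipitation with sequencing (ChIP-seq) gave 2 libraries per mark for cells given 0.01% DMSO, the solvent, 2 for JIB-04 at 150 nM and 2 for JIB-04 at 500 nM. All groups are the same cell line, and the length of treatment was not in the sources used here. These 12 of the series' 30 libraries were used, and those of H3K9me2, H3K9me3 and input were not used here.

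NFE2L1 encodes NRF1, a transcription factor that sits in the membrane of the endoplasmic reticulum and is released, with help from the deglycosylating enzyme NGLY1 and the protease DDI2, when proteasome function falls. NFE2L2 encodes NRF2, its cytoplasmic relative, which the adaptor KEAP1 passes to a CUL3 ubiquitin ligase for destruction until oxidants or electrophiles modify KEAP1. Both factors pair with small MAF proteins and bind the antioxidant response element, a short DNA motif near genes for glutathione synthesis, thioredoxin reduction and haem breakdown. SQSTM1 encodes p62, an autophagy receptor that binds KEAP1 and is itself an NRF2 target.

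The sequences shown are the matches to the core of the antioxidant response element in the promoters of these genes, because the element is the shared binding site of NRF1 and NRF2. RefSeq promoter windows of GRCh38.p14, running from 250 bases before to 50 bases after a start, were at hand for 8 of the 10 genes, in 14 windows. HMOX1 and SLC7A11 had no entry. The core was searched as TGACNNNGC on both strands, and 4 windows of 3 genes held it, KEAP1, GCLM and TXNRD1. Among all 35116 windows of that length, 13.3% held it. Each site is given 5′ to 3′ on the strand of the gene, with 10 bases on either side and the match in capitals. A match read on the opposite strand appears as GCNNNGTCA. The number is the position of the first capital, counted in bases from the start of transcription. For KEAP1 this is the inner start at 10502771, and the window of its first start at 10503356 held no match.
KEAP1, -54, chr19:10502807-10502835, minus strand: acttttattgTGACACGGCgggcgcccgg
KEAP1, -31, chr19:10502784-10502812, minus strand: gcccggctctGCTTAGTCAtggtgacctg
GCLM, -34, chr1:93909446-93909474, minus strand: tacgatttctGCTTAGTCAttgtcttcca
TXNRD1, -99, chr12:104215670-104215698, plus strand: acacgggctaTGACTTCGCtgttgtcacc
TXNRD1, -8, chr12:104215761-104215789, plus strand: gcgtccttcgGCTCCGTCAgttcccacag
TXNRD1 inner start, -102, chr12:104286920-104286948, plus strand: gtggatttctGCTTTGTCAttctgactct
The KEAP1 site at -31 and the GCLM site have the same 9 letters in capitals. The AP-1 motif, TGANTCA on both strands, which can overlap the element, was in none of the 14 windows and in 7.71% of all windows.

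The 250 bases before the first start of NFE2L1 are given beside those of GCLM, since both lie under a strong H3K4me3 peak and GCLM alone of the pair holds the element, again in capitals. A missing match says only that the letters are not in this window.
NFE2L1, chr17:48048109-48048358, plus strand: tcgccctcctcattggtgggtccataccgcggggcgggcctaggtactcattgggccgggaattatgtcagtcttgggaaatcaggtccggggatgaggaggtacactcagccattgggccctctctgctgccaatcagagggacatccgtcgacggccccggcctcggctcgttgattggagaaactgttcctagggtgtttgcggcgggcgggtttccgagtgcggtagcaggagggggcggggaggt
GCLM, chr1:93909431-93909680, minus strand: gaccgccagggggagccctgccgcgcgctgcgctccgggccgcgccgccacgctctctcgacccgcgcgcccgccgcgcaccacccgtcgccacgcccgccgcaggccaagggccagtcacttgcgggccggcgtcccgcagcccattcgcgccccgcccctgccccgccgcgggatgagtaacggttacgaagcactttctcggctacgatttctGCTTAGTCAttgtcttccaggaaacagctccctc

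The counts in peaks summed to 9686420 to 12327122 per H3K4me3 library and to 4360660 to 5410292 per H3K27ac library, so single H3K27ac peaks carried more counting error. Levels are given as CPM, a peak's count relative to all counts in tested peaks of its library after TMM normalization, and as CPM per kb of peak where genes are compared. The B-cell markers CD79B, MS4A1, CD22, PAX5, BCL6 and POU2AF1 each had an H3K4me3 peak inside the gene, at 21.9 to 52.9 CPM per kb in DMSO, and the peak counted for CD79A lay 940 bp away over the ARHGEF1 start. Of 7 markers of other cell types, 4 had one within the window, at 4.72 to 14.8 CPM per kb, that of CD3D lying 1375 bp away over CD3G, and ALB, CD3E and GATA1 had none. At 500 nM against DMSO, 5 of the 7 B-cell marker peaks were called lower, with log2 fold changes from -0.34 at CD79B to -0.11 at POU2AF1, and 0 higher. Of all tested H3K4me3 peaks, 18.7% were called lower and 20.7% higher. All 7 lay in the most abundant of 5 equal groups of peaks by abundance, in which 34.2% of all peaks were called lower and 4.8% higher. CD14, a monocyte marker, was called higher (0.67, edgeR adjusted p = 1.59e-05), the only call among the 4 peaks of the other markers. The part of these moves in the results was not tested. The 150 nM H3K4me3 libraries differed by less than sampling noise (chi-square per degree of freedom 0.92), but so did a DMSO and a 150 nM library (0.948), and they were kept as 2 samples. Among the H3K27ac libraries, DMSO replicate 2 and 150 nM replicate 2 stood apart on 5 unplaced contigs, with 71.6 and 45.9 CPM there (scaled to the total in peaks) against 322 to 446 in the other 4. Nothing in the labels says that replicates came from separate cultures, so p-values measure only the spread between these libraries.

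The H3K27ac domain inside NFE2L1 was lower at 150 nM than in DMSO and higher at 500 nM. It ran from 48052051 to 48058172 on chromosome 17, from 3.69 to 9.81 kb downstream of the first start of the gene (48048359 to 48061545, plus strand), and covered no annotated start. It carried 130.1 and 136 CPM in the DMSO libraries, 82.7 and 98.0 with 150 nM, and 184 and 191 with 500 nM. No library of one group reached into the range of another. The mean was 133 ± 4.0 CPM in DMSO, 90.3 ± 10.9 with 150 nM and 187 ± 5.08 with 500 nM (SD, n = 2). The log2 fold change against DMSO was -0.56 (SE 0.0986) at 150 nM and 0.49 (SE 0.0938) at 500 nM. No test is given for H3K27ac at NFE2L1, because these values led to the choice of the genes. The order of the groups held on the side of the contig split that holds replicate 1 of all groups, and between the low-contig replicates of DMSO and 150 nM.

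The other 4 H3K27ac peaks at NFE2L1 moved less in CPM. The peak over the start (48047247 to 48050166) also overlaps the neighbouring gene COPZ2. It carried 60.2 and 56.2 CPM in DMSO, 52.7 and 64.7 with 150 nM, and 64.8 and 71.2 with 500 nM, so that DMSO and 150 nM overlapped. A short peak just past the end of the domain (48058211 to 48058858) carried 4.14 and 4.21 CPM in DMSO, 2.55 and 3.96 with 150 nM, and 6.22 and 9.19 with 500 nM. On the log2 scale this short peak moved more than the domain at 500 nM against DMSO, by 0.88 (SE 0.314) beside 0.49 (SE 0.0938). The peak between the start and the domain (48050171 to 48051581) ranged from 13.6 to 17.7 CPM over the 6 libraries, and that at 48060324 to 48060739 from 3.61 to 5.75. As a share of the start peak of the same library, the domain stood at 216% and 242% in DMSO, 157% and 152% with 150 nM, and 283% and 268% with 500 nM.

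**Figure D1:**
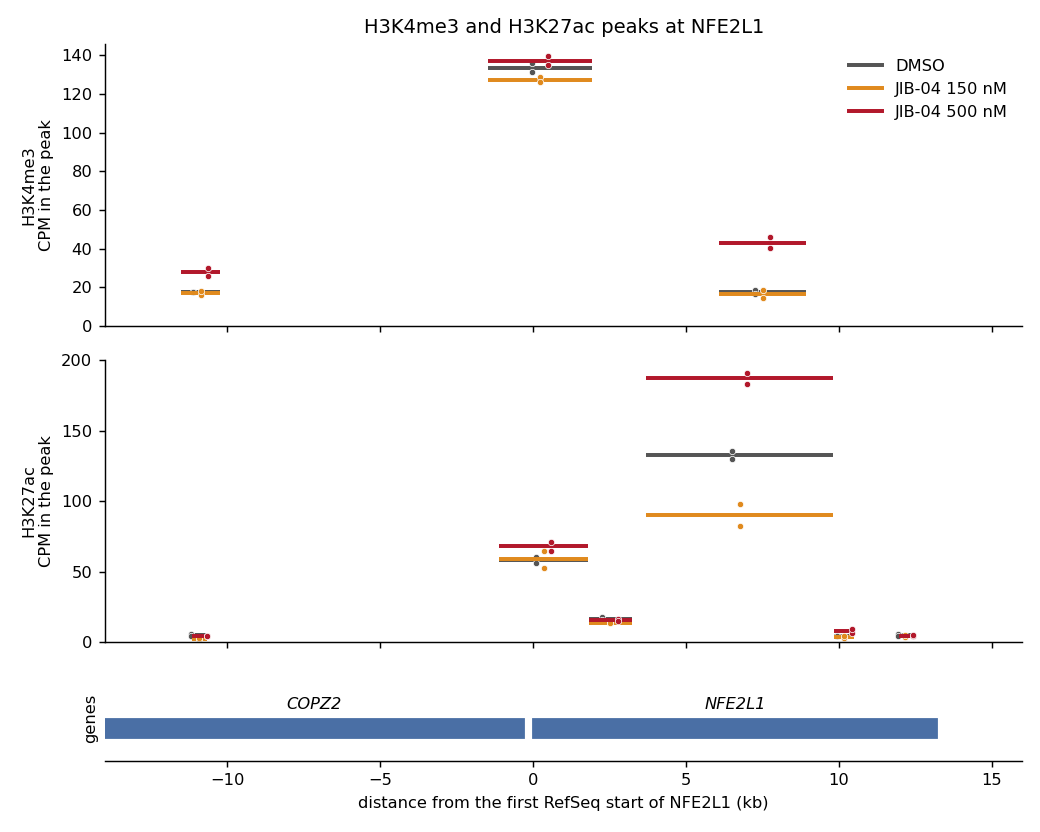
H3K4me3 (top) and H3K27ac (middle) in CPM per peak against the distance in kb from the first RefSeq start of NFE2L1, with genes below. Bars span a peak at its group mean and points are the 2 libraries of a group, set apart sideways for legibility. The inner H3K4me3 peak stands near 17 CPM in DMSO and 150 nM and at 43.0 CPM at 500 nM, while the H3K27ac domain over it goes from 133 to 90.3 to 187 CPM.

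H3K4me3 inside NFE2L1 rose at 500 nM and did not pass the test at 150 nM. The inner peak (48054442 to 48057283, 6.08 to 8.92 kb past the first start) lies within the H3K27ac domain. It carried 18.4 and 16.6 CPM in DMSO, 18.4 and 14.6 with 150 nM, and 45.8 and 40.1 with 500 nM, from 157 to 539 counts per library. The 500 nM libraries lay above all others, and the 150 nM and DMSO ranges overlapped. Against DMSO, the log2 fold change was 1.29 at 500 nM (SE 0.0872, edgeR quasi-likelihood test, adjusted p = 4.8e-19) and -0.09 at 150 nM (SE 0.109, adjusted p = 1.0). It was 1.39 at 500 nM against 150 nM (SE 0.0891, adjusted p = 6.17e-20), a comparison that shares the 500 nM libraries. The rise was called in all 15 alternative analyses, at 1.19 to 1.38 against DMSO. Of the 4080 peaks in the same of 5 equal groups of peaks by abundance, 46 had a higher log2 fold change. These counts come from separate immunoprecipitations. The gene was still chosen on H3K27ac in the same dose groups, in the domain that spans this peak, so the p-values here may depend on that choice.

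The H3K4me3 peak over the NFE2L1 start (48046885 to 48050289) also covers the start of the divergent NFE2L1-DT and overlaps the gene COPZ2. It carried 132 and 136 CPM in DMSO, 129 and 126 with 150 nM, and 139.7 and 135 with 500 nM. The DMSO and 500 nM ranges overlapped. It differed from DMSO at 500 nM by 0.04 on the log2 scale (SE 0.0373, adjusted p = 0.393), and 0.11 with loess offsets, where it was called (adjusted p = 0.0176). Against 150 nM it was 0.11 (SE 0.0379, adjusted p = 0.0186), a call lost without 150 nM replicate 1 (adjusted p = 0.0702), 150 nM replicate 2 (0.165) or 500 nM replicate 1 (0.218), and with DESeq2 (0.249). The inner peak amounted to 14.0% and 12.2% of the start peak in DMSO, 14.2% and 11.6% with 150 nM, and 32.8% and 29.8% with 500 nM.

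Outside the 5 kb window, the nearest H3K4me3 peak to NFE2L1 lay over the start of COPZ2 and over MIR152 (48036849 to 48038131). It carried 17.3 and 17.7 CPM in DMSO, 16.1 and 17.8 with 150 nM, and 29.8 and 25.6 with 500 nM, with no test given. The starts of the next genes on the other side, CBX1 and SNX11, carried 85.1 and 85.3, and 85.0 and 81.9 CPM in DMSO, and 75.4 and 78.3, and 81.5 and 82.4 at 500 nM.

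NFE2L2 and KEAP1 were called in neither mark at either dose. The H3K4me3 peak over the NFE2L2 starts (177261188 to 177266032 on chromosome 2) carried 176 and 186 CPM in DMSO, 181 and 183 with 150 nM, and 168 and 179 with 500 nM, and the DMSO range overlapped those of both doses. The change at 500 nM relative to DMSO was -0.06 on the log2 scale (SE 0.0349, adjusted p = 0.195), and it was called without DMSO replicate 1 (-0.10, adjusted p = 0.0496) or 500 nM replicate 2 (-0.10, adjusted p = 0.0393). KEAP1, at 10501488 to 10503893 on chromosome 19, carried 139 and 146 CPM in DMSO, 139.4 and 139.4 with 150 nM, and 141 and 152 with 500 nM (log2 fold change 0.04, SE 0.0376, adjusted p = 0.435), and was called with loess offsets (0.10, adjusted p = 0.0157). Per kb, KEAP1 had the highest H3K4me3 level in DMSO of the 19 peaks, 59.2 CPM, and NFE2L2 had 37.3 and the NFE2L1 start 39.3.

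The main H3K27ac peak of NFE2L2 (177262143 to 177268410) was 6268 bp long and carried 138 and 146 CPM in DMSO, 133 and 141 with 150 nM, and 152 and 156 with 500 nM. The 500 nM libraries lay above the others, by less than the test required (log2 fold change 0.12, SE 0.0913, adjusted p = 0.677). That of KEAP1 carried 79.8 and 72.2 CPM in DMSO, 73.5 and 91.6 with 150 nM, and 78.2 and 81.0 with 500 nM, with overlap between all groups.

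At SQSTM1, the KEAP1-binding autophagy receptor, 2 H3K4me3 peaks inside the gene rose at 500 nM, and those over its starts did not. The gene spans 179806393 to 179838078 on chromosome 5, plus strand. A small peak 10.4 to 11.1 kb past the first start (179816757 to 179817531) carried 2.53 and 3.44 CPM in DMSO, 3.58 and 3.07 with 150 nM, and 5.95 and 5.82 with 500 nM. Its log2 fold change was 1.00 against DMSO (SE 0.226, adjusted p = 0.000285) and 0.82 against 150 nM (SE 0.221, adjusted p = 0.00218). The next peak, 12 to 13.4 kb past the start (179818344 to 179819807), carried 8.98 and 6.88 CPM in DMSO, 9.77 and 11.3 with 150 nM, and 14.9 and 14.2 with 500 nM. Its log2 fold change was 0.86 against DMSO (SE 0.141, adjusted p = 1.16e-06) and 0.47 against 150 nM (SE 0.134, adjusted p = 0.00353). In both inner peaks the 500 nM libraries lay above all others. The rise of the second peak over 150 nM was not called without 150 nM replicate 1 (0.37, adjusted p = 0.0852), and with DESeq2 neither inner peak was called against 150 nM (adjusted p = 0.0889 and 0.123).

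The peak over an inner start of SQSTM1 (179820245 to 179822256), directly beside them, was the most abundant of the gene. It carried 95.8 and 99.9 CPM in DMSO, 95.0 and 101 with 150 nM, and 94.5 and 98.96 with 500 nM, with full overlap (log2 fold change -0.02, SE 0.0439, adjusted p = 0.79). The peak over the first starts (179805265 to 179808055) also covers the start of the neighbouring gene MGAT4B, and the 2 genes cannot be told apart there. It carried 81.2 and 95.4 CPM in DMSO, 89.4 and 83.0 with 150 nM, and 82.0 and 77.9 with 500 nM. The DMSO and 500 nM ranges overlapped. The log2 fold change of -0.13 at 500 nM (SE 0.0518, adjusted p = 0.0384) fell to -0.02 without DMSO replicate 2 (adjusted p = 0.797), was -0.26 without DMSO replicate 1, and lost its call without 500 nM replicate 2 (-0.10, adjusted p = 0.189). The call was lost in 6 of 15 alternatives, the others being total-count scaling (adjusted p = 0.142), loess offsets (0.248), a mean count of at least 50 (0.0815) and DESeq2 (0.317).

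H3K27ac at SQSTM1 lay in 2 peaks. The larger (179818182 to 179821829) covers the second inner H3K4me3 peak and the inner start. It carried 79.1 and 82.8 CPM in DMSO, 70.3 and 79.7 with 150 nM, and 99.8 and 95.6 with 500 nM. The 500 nM libraries lay above all others. The difference did not pass the test against DMSO (log2 fold change 0.27, SE 0.105, adjusted p = 0.268) or against 150 nM (0.38, SE 0.105, adjusted p = 0.0556). It was called in 4 of 15 alternatives against DMSO and in 5 of 15 against 150 nM. Among them was the fit with the contig split as a term (0.34, adjusted p = 0.0396, and 0.44, adjusted p = 0.0017). Over all H3K27ac peaks that fit gave 1274 and 913 calls, beside 499 and 687 in the main fit. Leaving out 150 nM replicate 1 or 150 nM replicate 2 also gave the call against DMSO (adjusted p = 0.0272 and 0.0359).

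**Figure D2:**
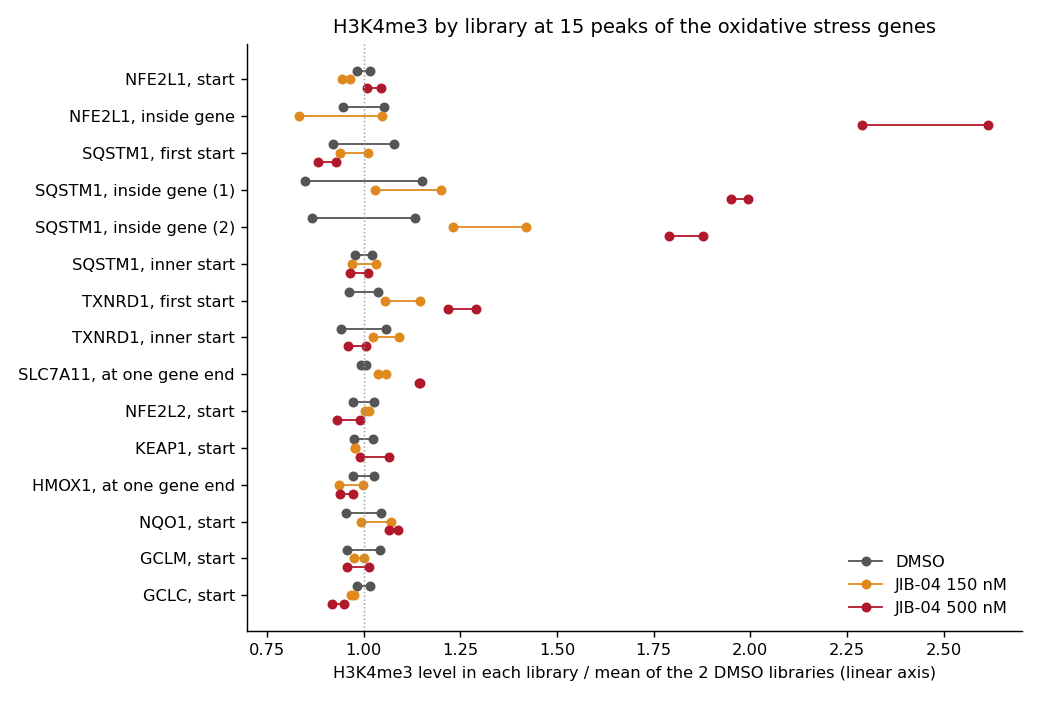
H3K4me3 in each library at 15 peaks, divided by the mean of the 2 DMSO libraries (linear axis), with a line joining the libraries of a group. The 500 nM libraries stand clear to the right at the inner peaks of NFE2L1 and SQSTM1, and most other peaks stay near 1.

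TXNRD1 encodes cytosolic thioredoxin reductase, which keeps thioredoxin in its reduced form. H3K4me3 over its first start (104215579 to 104216451 on chromosome 12), which holds the element at -99 and -8 shown above, carried 13.3 and 14.3 CPM in DMSO, 15.9 and 14.6 with 150 nM, and 17.9 and 16.9 with 500 nM. The groups did not overlap and stood in the order of dose. Against DMSO, the log2 fold change was 0.33 at 500 nM (SE 0.113, adjusted p = 0.014) and 0.15 at 150 nM (SE 0.116, adjusted p = 1.0). The call at 500 nM was lost without DMSO replicate 1 (adjusted p = 0.124) or 500 nM replicate 1 (0.12), with DESeq2 (0.211), and with loess offsets on abundance (0.22, adjusted p = 0.121). At the inner start (104286573 to 104290017), which holds the element at -102, the peak carried 71.5 and 63.7 CPM in DMSO, 69.2 and 73.8 with 150 nM, and 65.0 and 68.1 with 500 nM, and the 500 nM libraries lay within the DMSO range (-0.03, SE 0.0534, adjusted p = 0.649). H3K27ac over that start was 48.3 and 43.1 CPM in DMSO, 38.9 and 39.8 with 150 nM, and 42.2 and 35.6 with 500 nM, a difference that did not pass the test (-0.23, SE 0.133, adjusted p = 0.53).

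SLC7A11 encodes the cystine carrier of the exchanger that feeds glutathione synthesis. Its H3K4me3 peak (138240117 to 138243070 on chromosome 4) spans the upper end of the gene, at 138242349. It carried 52.8 and 52.2 CPM in DMSO, 55.5 and 54.4 with 150 nM, and 59.9 and 60.1 with 500 nM, so that the groups did not overlap and the replicates lay close together. Against DMSO, the log2 fold change was 0.19 at 500 nM (SE 0.0545, adjusted p = 0.00376), 0.07 at 150 nM (SE 0.0554, adjusted p = 1.0) and 0.13 between the doses (SE 0.0542, adjusted p = 0.0682). The call against DMSO held in 14 of 15 alternatives, the exception being DESeq2 (adjusted p = 0.147). A small peak beside it (138239494 to 138240026) carried 1.14 and 1.18 CPM in DMSO, 0.537 and 1.02 with 150 nM, and 1.70 and 1.53 with 500 nM. It was called between the doses (1.05, SE 0.43, adjusted p = 0.0455), a call kept in 4 of 15 alternatives, and it stood at 0.66 without 150 nM replicate 1. The main H3K27ac peak, just inside the same end of the gene (138241027 to 138242337), was level. It carried 24.8 and 23.5 CPM in DMSO and 25.1 and 22.7 at 500 nM (-0.01, SE 0.16, adjusted p = 0.988). A smaller peak just beyond that end (138242592 to 138243198) carried 4.83 and 3.01 CPM in DMSO, 7.86 and 1.70 with 150 nM, and 6.59 and 3.91 with 500 nM. Its groups overlapped (0.44, SE 0.403, adjusted p = 0.731).

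GCLC and GCLM encode the catalytic and modifier subunits of the enzyme that starts glutathione synthesis. H3K4me3 over the GCLM start (93907642 to 93910370 on chromosome 1), where the element at -34 lies, carried 92.2 and 100.6 CPM in DMSO, 96.5 and 94.1 with 150 nM, and 92.3 and 97.8 with 500 nM. The groups overlapped fully (log2 fold change -0.02, SE 0.045, adjusted p = 0.785). Over the GCLC start (53543157 to 53545545 on chromosome 6) it carried 106 and 109 CPM in DMSO, 105 and 104 with 150 nM, and 98.7 and 102 with 500 nM. The groups did not overlap, and the difference at 500 nM missed the threshold (-0.10, SE 0.0416, adjusted p = 0.0535). A small peak at the start of the antisense GCLC-AS1, beyond the other end of the gene, had a log2 fold change of 0.85 with a wide error (SE 0.399, adjusted p = 0.0851) on 0.982 to 1.06 CPM in DMSO. The peak upstream of GCLC (53547159 to 53548619) ranged from 32.8 to 39.8 CPM with overlap between groups. H3K27ac over the GCLM start carried 18.2 and 19.45 CPM in DMSO, 14.2 and 22.8 with 150 nM, and 17.9 and 22.5 with 500 nM (0.10, SE 0.188, adjusted p = 0.898). Over the GCLC start it carried 24.4 and 24.7 CPM in DMSO, 21.9 and 26.8 with 150 nM, and 24.7 and 26.4 with 500 nM (0.06, SE 0.159, adjusted p = 0.932). At both starts the 150 nM libraries lay on either side of the DMSO libraries.

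HMOX1 encodes the inducible haem oxygenase. H3K4me3 at the lower end of the gene (35380760 to 35382188 on chromosome 22) carried 29.9 and 31.6 CPM in DMSO, 30.7 and 28.9 with 150 nM, and 28.9 and 29.9 with 500 nM (log2 fold change -0.06, SE 0.077, adjusted p = 0.556). The most abundant peak counted for HMOX1 in both marks lies over MCM5, a replication helicase gene, and describes that gene rather than HMOX1. For H3K4me3 it carried 120.4 and 125 CPM in DMSO, 125 and 123 with 150 nM, and 115 and 116 with 500 nM. It was called at 500 nM against 150 nM (-0.11, SE 0.0393, adjusted p = 0.0258), a call lost in 7 of 15 alternatives, among them those without 150 nM replicate 1 (adjusted p = 0.134), 150 nM replicate 2 (0.0735) or 500 nM replicate 1 (0.121). For H3K27ac the MCM5 peak carried 74.7 and 74.4 CPM in DMSO, 75.4 and 79.7 with 150 nM, and 81.2 and 76.3 with 500 nM (0.08, SE 0.108, adjusted p = 0.839). Another H3K27ac peak (35393138 to 35395165) spans the upper end of HMOX1, at 35394207. It carried 25.5 and 31.7 CPM in DMSO, 23.6 and 28.1 with 150 nM, and 20.2 and 20.5 with 500 nM. The 500 nM libraries lay below all others, and the difference did not pass the test (-0.50, SE 0.163, adjusted p = 0.152). It passed when only DMSO and 500 nM were fitted (adjusted p = 0.0145) and without 150 nM replicate 1 (0.0226) or 150 nM replicate 2 (0.0231).

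NQO1 encodes a quinone reductase. H3K4me3 over its start and that of the divergent NQO1-DT (69725848 to 69727481 on chromosome 16) carried 39.9 and 36.3 CPM in DMSO, 37.9 and 40.8 with 150 nM, and 41.5 and 40.65 with 500 nM. The 500 nM libraries lay above those of DMSO, by an amount that did not pass the test (0.10, SE 0.0667, adjusted p = 0.23). H3K27ac there was 36.3 and 33.7 CPM in DMSO, 34.9 and 38.3 with 150 nM, and 34.9 and 34.6 with 500 nM.

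Of the 19 H3K4me3 peaks, 6 were called at 500 nM against DMSO, 5 higher and 1 lower, which is 31.6% of them. Of all 20402 tested H3K4me3 peaks, 39.4% were called in that comparison, 20.7% higher and 18.7% lower. The share at these genes was not above that of all peaks, and without the NFE2L1 peaks it was 5 of 17, or 29.4%. The median log2 fold change was 0.04 over the 19 peaks and -0.01 over all peaks. With scaling by the total count in peaks the calls were 5 higher and 0 lower, and with loess offsets 6 higher and 0 lower. Over all 20402 peaks these scalings gave 4767 higher and 2791 lower (total count), and 3559 higher and 3312 lower (loess offsets). DESeq2 called 3 of the 19, and 3479 of all 20402 tested peaks. Against 150 nM, 6 peaks were called at 500 nM, 5 higher and 1 lower, where 39.2% of all peaks were called, 20.5% higher and 18.6% lower. Without NFE2L1 these were 4 of 17, 3 higher and 1 lower, the lower being the peak over MCM5 that was counted for HMOX1. Over all 19 peaks, NFE2L1 included, the other scalings gave 7 higher (total count) and 5 higher (loess offsets) with 0 lower. Over all 20402 peaks they gave 4695 higher and 2921 lower (total count), and 3537 higher and 3441 lower (loess offsets). No peak was called at 150 nM against DMSO by edgeR or DESeq2, where 0.0% of all peaks were called, and 1 had an unadjusted p under 0.05 in edgeR, as had 4.66% of all peaks.

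The direction of the H3K4me3 changes at 500 nM went with the abundance of the peak across the whole table, and the member peaks were spread over it. In 5 equal groups of peaks from low to high abundance, the median log2 fold change against DMSO over all peaks was 0.44, 0.20, 0.02, -0.04 and -0.06. The members numbered 2, 2, 5, 3 and 7 in these groups. Both inner SQSTM1 peaks fell in the second group, in which 34.1% of all peaks were called higher, and 571 and 717 of its 4080 peaks had a higher log2 fold change. The inner NFE2L1 peak and the first TXNRD1 start fell in the middle group, in which 29.1% were called higher, and 730 of its 4080 peaks lay above TXNRD1. SLC7A11 fell in the fourth group, in which 9.22% were called higher, and 208 of its 4080 peaks lay above it. The part of abundance in these changes was not tested beyond the loess offsets. Under these, at 500 nM against DMSO, the TXNRD1 rise and the fall at the first SQSTM1 starts lost their calls, and the NFE2L1 start and KEAP1 were called higher.

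**Figure D3:**
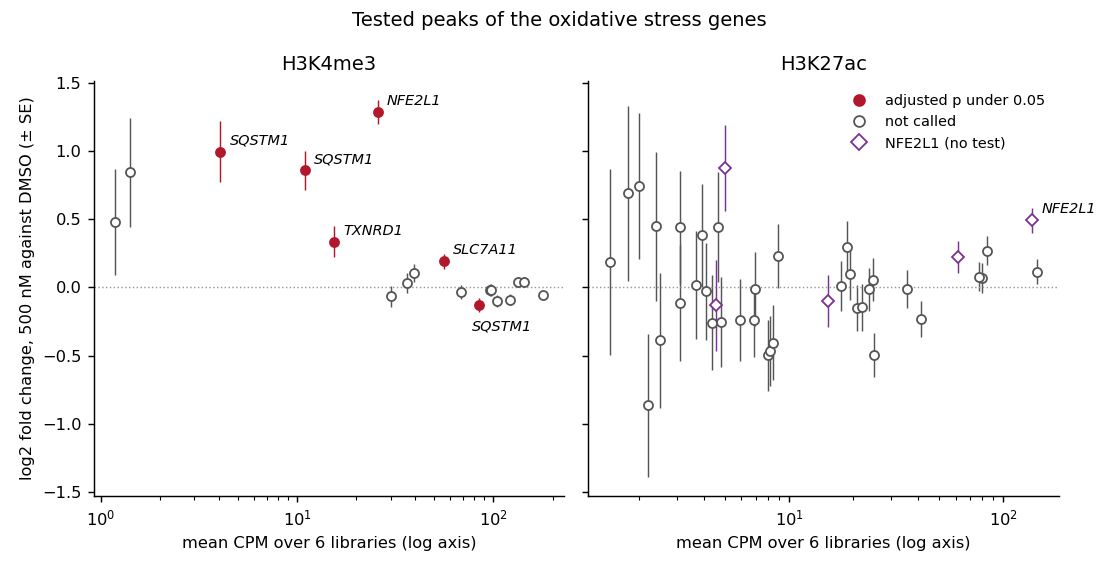
Log2 fold change at 500 nM against DMSO (± SE) of the tested peaks against their mean CPM over the 6 libraries (log axis), H3K4me3 left and H3K27ac right. Of the 5 called H3K4me3 rises, 4 lie at low to middle levels and that of SLC7A11 lies above them, and no H3K27ac peak outside NFE2L1 was called. NFE2L1 H3K27ac peaks are diamonds and carry no test.

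Of the 41 H3K27ac peaks at the 9 genes other than NFE2L1, 35 passed the filter on low counts, and the other 6 had too few counts to be tested. None was called by edgeR at 150 nM against DMSO, at 500 nM against DMSO or between the doses, where 0.00185%, 0.923% and 1.27% of all 54037 tested peaks were called. Unadjusted p-values under 0.05 numbered 0, 2 and 3 in these comparisons, where 3.94%, 11.5% and 10.2% of all peaks had one. DESeq2 called none but left 6, 23 and 19 of the 41 without an adjusted p, the 6 untested peaks among them each time. The lowest adjusted p was 1.0, 0.152 and 0.0556. The medians of the 35 log2 fold changes were -0.08, -0.01 and 0.05, beside -0.01, -0.00 and 0.01 over all peaks.

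The summed H3K27ac level over the peaks that overlap each gene set NFE2L1 beside the others. NFE2L1 had 218 and 216 CPM in DMSO, 155 and 185 with 150 nM, and 275 and 291 with 500 nM. SQSTM1 had 94.9 and 101 in DMSO, 84.1 and 102 with 150 nM, and 120.2 and 117 with 500 nM. HMOX1 had 42.3 and 49.3 in DMSO, 39.3 and 40.7 with 150 nM, and 31.8 and 35.4 with 500 nM. These sums differ in the length they cover, so they show changes within a gene and not an order of genes.

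The other genes of the pathway were read from their most abundant peak. Of 56 listed genes, 50 had an H3K4me3 peak, and at 500 nM against DMSO 5 were higher, 11 lower and 34 not called, with a median log2 fold change of -0.04, where 39.4% of all tested peaks were called, 20.7% higher and 18.7% lower, and their median was -0.01. Of these 50 peaks 30 fell in the most abundant of the 5 groups, in which 4.8% of all peaks were called higher and 34.2% lower, and 13 in the fourth, in which 9.22% were called higher and 22.7% lower. Among partners and regulators of NRF1 and NRF2, 0 of 15 rose and 7 fell, and 9 of the 15 peaks were in the most abundant group and 5 in the fourth. MAFK, a small MAF partner, carried 70.9 and 69.2 CPM in DMSO, 70.7 and 69.2 with 150 nM, and 52.5 and 52.2 with 500 nM (log2 fold change -0.42, SE 0.0527, adjusted p = 1.52e-09). NGLY1, the enzyme that acts on NRF1, went from 86.2 and 85.7 CPM in DMSO to 70.7 and 70.1 at 500 nM (-0.29, SE 0.047, adjusted p = 1.09e-06). At both genes the 150 nM libraries were at the DMSO level.

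In the glutathione and thioredoxin system 2 of 16 rose and 1 fell. CHAC1, which degrades glutathione, carried 106 and 113 CPM in DMSO, 104 and 107 with 150 nM, and 166 and 169.6 with 500 nM (0.62, SE 0.0377, adjusted p = 5.7e-21). GSTM3, a glutathione transferase, had a small peak of 1.31 and 0.982 CPM in DMSO and 3.66 and 3.47 at 500 nM (1.61, SE 0.334, adjusted p = 7.63e-05). GSR, glutathione reductase, fell from 65.0 and 62.5 to 56.7 and 52.9 CPM (-0.22, SE 0.0549, adjusted p = 0.00117). In the supply of NADPH 0 of 5 rose and 1 fell, the transketolase gene TKT (-0.13, SE 0.0367, adjusted p = 0.00473).

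Among 9 genes of quinone, aldehyde, haem and iron handling and export, 2 rose and 2 fell. The epoxide hydrolase gene EPHX1 went from 10.9 and 11.98 CPM in DMSO to 24.3 and 18.5 at 500 nM (0.93, SE 0.119, adjusted p = 3.4e-09), and the biliverdin reductase gene BLVRA from 24.1 and 24.5 to 40.1 and 37.7 (0.69, SE 0.0763, adjusted p = 5.03e-11). The exporter gene ABCC1 fell (-0.28, SE 0.041, adjusted p = 1.07e-07). The peak counted for BLVRB lies 2561 bp away over SERTAD3 (-0.12, SE 0.0419, adjusted p = 0.0204). In the superoxide and peroxide group 1 of 5 rose, the sestrin gene SESN2, from 100.4 and 106 to 131 and 136 CPM (0.37, SE 0.0401, adjusted p = 2.12e-11).

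For H3K27ac 48 of the 56 listed genes had a peak, and 1 was called at 500 nM against DMSO, where 0.923% of all tested peaks were called. CHAC1 carried 39.8 and 45.9 CPM in DMSO, 27.6 and 32.2 with 150 nM, and 59.9 and 64.9 with 500 nM (0.54, SE 0.126, adjusted p = 0.0165). Its 150 nM libraries lay below both DMSO libraries and its 500 nM libraries above them, with no call at 150 nM (-0.52, SE 0.139, adjusted p = 1.0). This order of the groups is also that of the H3K27ac domain in NFE2L1.

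**Figure D4:**
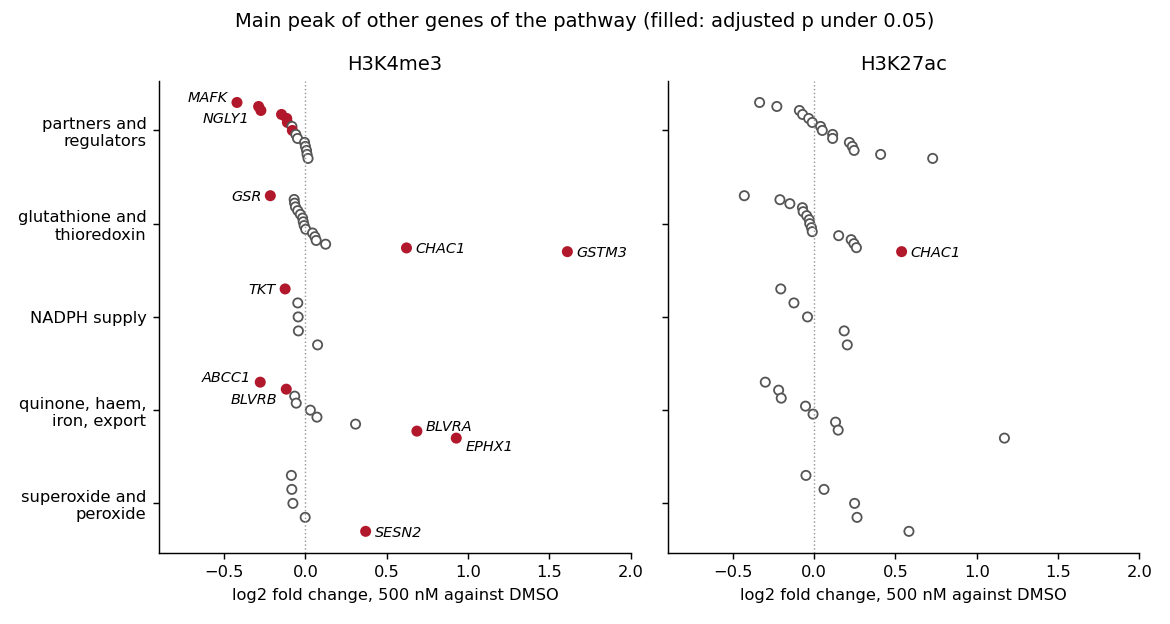
Log2 fold change at 500 nM against DMSO of the most abundant peak of each listed gene, by group, for H3K4me3 (left) and H3K27ac (right). Filled points have an adjusted p under 0.05, and for H3K4me3 they lie on both sides of 0, with 5 higher and 11 lower.

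The 5 H3K27ac peaks whose levels most resembled the NFE2L1 domain over the 6 libraries were found among 4531 peaks of at least 50 CPM by Pearson's r of log2 CPM, a description over 6 points that share library and depth. They lay over GARS1 (0.986), SLC1A5 (0.98), KLC1 (0.975), CCDC12 (0.973) and LOC107985364 (0.972). The peak in CCDC12 had 48.1 ± 1.73 CPM in DMSO, 35.6 ± 4.33 with 150 nM and 88.7 ± 7.09 with 500 nM (SD, n = 2). That at the start of SLC1A5 had 139 ± 1.45, 112 ± 8.46 and 152 ± 0.501 CPM, and that at GARS1 120.4 ± 2.49, 112 ± 3.12 and 135 ± 0.445. The NFE2L1 domain and the CCDC12 peak thus moved over a wider range than the other 4.

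At the edge of the 5 kb window, the peaks over MCM5 lay inside it, 4687 bp (H3K4me3) and 4585 bp (H3K27ac) from HMOX1. Just outside lay the H3K4me3 peak at the DNTTIP2 start, 5279 bp from GCLM, with a mean of 84.5 CPM in DMSO and 80.5 at 500 nM. The H3K27ac peak there, at 5339 bp, had a mean of 23.9 CPM in DMSO and 32.6 at 500 nM, and one 5604 bp from NFE2L2 had 3.52 in DMSO and 4.499 at 500 nM.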

How the data were processed

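ChIP-seq counts of H3K4me3 and H3K27ac in OCI-Ly1 were analysed. Per the file headers, the authors deposited raw counts per consensus peak from featureCounts 2.0.1, unstranded, with a read allowed in several peaks when a fraction of 0.2 overlapped. Those headers carry the paired-read option, but per the labels' protocols reads were single and 50 bp long, which leaves it unclear whether reads or fragments were counted. The submitters' processing notes name Trim Galore 0.6.7, BWA 0.7.17-r1188, Picard 2.27.4, MACS2 2.2.7.1, deepTools 3.5.1, edgeR 3.42.4 and GRCh38. How the consensus was made is not given in the sources used here. Groups came from the titles, and 1 was added to deposited starts.

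All 6 libraries of a mark were fitted together in edgeR 4.0.16 (R 4.3.3) with filterByExpr, TMM and the quasi-likelihood test. P-values were adjusted by Benjamini-Hochberg over all tested peaks of the comparison, and a peak was called at an adjusted p under 0.05. Because scaling is within peaks, a change common to all peaks is not measured. Simulated counts with 200 changed peaks served to test the fit. DESeq2 1.42.0, other scalings and filters, a replicate block, the contig split of H3K27ac, smaller windows and leaving out each library were alternatives. Counting the 150 nM H3K4me3 libraries as 1 sample was added after seeing the data.

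All members are named, each with its most abundant peak and its called peaks. Of the listed genes, at most the 2 largest rises and falls per list and mark in 500 nM against DMSO are named, given a call and 500 nM libraries beyond DMSO. The members and lists were chosen with earlier results of these data known. One further marker gene in the lists is not reported here.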

Additional observations from a re-analysis of the deposited data

How the results depend on the processing

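For single peaks, 1119 values of 75 results under the alternatives included 1062 on the same side of the threshold as reported, 36 that lost a call, 21 that gained one and 0 called values that changed sign. Of the 19 H3K4me3 peaks, at 500 nM DESeq2 called 3 relative to DMSO and 1 relative to 150 nM. With edgeR these were 6 each. Over all 20402 tested peaks DESeq2 called 3479 relative to DMSO and 3473 relative to 150 nM, and edgeR 8034 and 7988. The cause of the difference was not tested. Leaving out single libraries gave 5 to 7 calls against DMSO and 2 to 6 against 150 nM, the lowest being 2 without 150 nM replicate 1, then 3 without 150 nM replicate 2. For H3K27ac without NFE2L1, none was called in the main fit. At 500 nM against DMSO, fitting only the 4 libraries of the contrast gave 2 calls, where 2105 of all 51135 tested peaks were called. The split of the libraries as a term gave 1, where 1274 of all 54037 were called, beside 499 in the main fit. Between the doses, loess offsets, a mean count of at least 50 and the split of the libraries as a term each gave 1 call. Over all peaks these settings called 699 of 54037, 379 of 20357 and 913 of 54037, beside 687 of 54037 in the main fit. Leaving out either 150 nM library also gave calls in both comparisons.

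With the replicate number as a block, 6 H3K4me3 peaks were called in both comparisons, as without it, and 1 H3K27ac peak, at SQSTM1, was called between the doses (log2 fold change 0.38, adjusted p = 0.0083). Over all peaks the block moved the H3K27ac calls from 499 to 1150 at 500 nM against DMSO, and from 687 to 1186 between the doses. Same-numbered libraries deviated together with correlations of 0.00466 to 0.0489 for H3K4me3 and 0.00262 to 0.133 for H3K27ac, so the numbers were not taken to pair the libraries. The H3K27ac peaks had a median of 21 to 24 counts per peak and library, which limits what could be called. The 150 nM H3K27ac libraries also differed from each other more than those of the other groups did. Their chi-square per degree of freedom was 2.38, beside 1.29 between the DMSO libraries and 1.22 between the 500 nM libraries. The part of each in the lack of calls was not tested.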
